A study of Homo sapiens with 6 samples.

Results

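The regions described here are sites where NRF2 was listed in both libraries of CDDO-Im-treated cells and in neither vehicle library, and which lie outside protein-coding genes but close to them. There were 277 of them among the 1428 regions gained with CDDO-Im and the 7386 joined peak regions outside crowded megabases (those with more than 20 joined regions). With crowded megabases there were 19331 joined regions. The assay was ChIP-seq, in which DNA pulled down with an antibody to NRF2 is sequenced, and the cells were HMC3, a human line of microglial origin. The groups were CDDO-Im (30 nM for 4 h, 2 libraries), vehicle (2 libraries) and input (2 samples, not analysed here). CDDO-Im is a synthetic triterpenoid that activates NRF2. The sample titles alone separate the groups, because the treatment text is shared by every sample, and the vehicle is not named there. The labels do not state whether the libraries of a group are separate cultures, and differences between them may be technical.

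NRF2 is a transcription factor that is kept low by KEAP1 in unstressed cells. Electrophiles such as CDDO-Im modify KEAP1, NRF2 then accumulates, and with small MAF partners it binds antioxidant response elements. Its known targets include genes for detoxification, glutathione synthesis, NADPH supply and iron handling. Many transcription factor sites lie between genes, at distal elements, where the gene they act on is not given by position alone. Each region is therefore named by its nearest protein-coding gene, as a label of place.

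The 277 regions were chosen by the listing of peaks in the 4 libraries and by position on hg38. Peaks on chromosomes 1 to 22 and X that overlapped by at least 1 bp were joined, and megabases with more than 20 joined regions were set aside. The summit then had to lie outside every protein-coding gene, over 2500 bp and up to 50000 bp from the nearest gene end. Presence with CDDO-Im and absence under vehicle are thus the rule and not a finding. At the lower limit, the closest gained region inside it lay 2626 bp from OR2V1 (14 and 11 tags in CDDO-Im 1 and 2). The closest outside it lay 2343 bp from CREBRF (19 and 15 tags). At the upper limit, these were 49119 bp from DOCK10 (13 and 12 tags) and 50009 bp from CCL1 (9 and 8 tags). No such region was in a crowded megabase: at most 13 joined regions shared a megabase with a region of the 277, and keeping crowded megabases left the count at 277.

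Sequence was available for the summits of 4 regions, because each fell in the RefSeq promoter window (GRCh38.p14, 250 bases before to 50 after a start) of a long non-coding RNA gene. They are shown since they are the places where the bases under an NRF2 summit can be read. Capitals mark matches to TGACNNNGC, the core of the antioxidant response element, searched on both strands. Each is printed 5′ to 3′ in the direction of the RNA gene.
LOC105378929, chr1:117821752-117822051, minus strand: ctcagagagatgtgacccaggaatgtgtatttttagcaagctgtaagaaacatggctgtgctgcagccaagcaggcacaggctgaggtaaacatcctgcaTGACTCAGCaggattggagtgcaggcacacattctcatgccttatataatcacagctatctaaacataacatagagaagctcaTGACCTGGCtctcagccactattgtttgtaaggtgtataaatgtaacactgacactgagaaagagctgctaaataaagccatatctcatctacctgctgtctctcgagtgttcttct
LOC102723825, chr2:240387740-240388039, minus strand: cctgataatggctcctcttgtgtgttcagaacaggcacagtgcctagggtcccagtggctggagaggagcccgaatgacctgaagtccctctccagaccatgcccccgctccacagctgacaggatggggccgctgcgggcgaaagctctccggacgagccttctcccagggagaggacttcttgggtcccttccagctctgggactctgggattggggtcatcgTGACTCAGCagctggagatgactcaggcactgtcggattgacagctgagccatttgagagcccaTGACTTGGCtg
LINC00942, chr12:1500241-1500540, plus strand: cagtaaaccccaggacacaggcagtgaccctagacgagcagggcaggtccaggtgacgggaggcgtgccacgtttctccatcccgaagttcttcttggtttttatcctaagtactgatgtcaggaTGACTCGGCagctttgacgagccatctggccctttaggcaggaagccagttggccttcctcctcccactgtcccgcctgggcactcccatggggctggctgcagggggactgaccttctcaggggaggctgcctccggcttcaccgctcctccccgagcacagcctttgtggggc
LOC105377297, chr4:77636904-77637203, minus strand: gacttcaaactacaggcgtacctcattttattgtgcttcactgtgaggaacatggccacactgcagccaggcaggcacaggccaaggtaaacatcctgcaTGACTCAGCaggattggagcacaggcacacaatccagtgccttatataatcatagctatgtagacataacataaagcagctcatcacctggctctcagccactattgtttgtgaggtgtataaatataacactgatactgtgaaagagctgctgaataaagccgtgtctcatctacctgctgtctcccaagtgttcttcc

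All 4 windows held the core, and in each a match was centred within 50 bp of the summit. At LOC105378929 (nearest coding gene GDAP2, 41551 bp away; 22 and 30 tags in CDDO-Im 1 and 2) the match TGACTCAGC lay 13 bp before the summit. Near GPC1, a glypican gene 47857 bp away, the LOC102723825 window had 15 and 21 tags and the same letters 4 bp before the summit. LINC00942, 4420 bp from ERC1, had 8 and 25 tags and TGACTCGGC 17 bp past the summit. Near CXCL13, a B cell chemokine gene 25238 bp away, LOC105377297 had 8 and 13 tags, with TGACTCAGC 27 bp before the summit. Farther matches were TGACCTGGC, 70 bp past the summit at LOC105378929, and TGACTTGGC, 60 bp past it at LOC102723825.

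Across 34961 RefSeq promoter windows, which leave out chromosome 8, 13.4% held TGACNNNGC. The exact letters TGACTCAGC stood in 0.563% of windows, on either strand. The AP-1 motif TGANTCA, which shares its letters with TGACTCAGC, was in 3 of the 4 windows and in 7.68% of all. The core was also present where the summit of another kind of region fell in a window. It stood in 5 of 7 gained regions elsewhere, in 8 of 10 regions of both CDDO-Im and at least 1 vehicle library, and in 20 of 27 regions that were not in both CDDO-Im lists. A match is a description of letters and not a measured site, and the difference between these shares was not tested.

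The LOC105378929 and LOC105377297 windows were alike at 238 of 300 positions (79.3%), although they lie on different chromosomes. They shared an unbroken run of 35 bases that includes the core, and no other window among the 34961 held this run. The remaining pairs were alike at 22.7% to 28.7% of positions. How reads were placed between these similar copies was not tested, so their tags are uncertain.

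**Figure D1:**
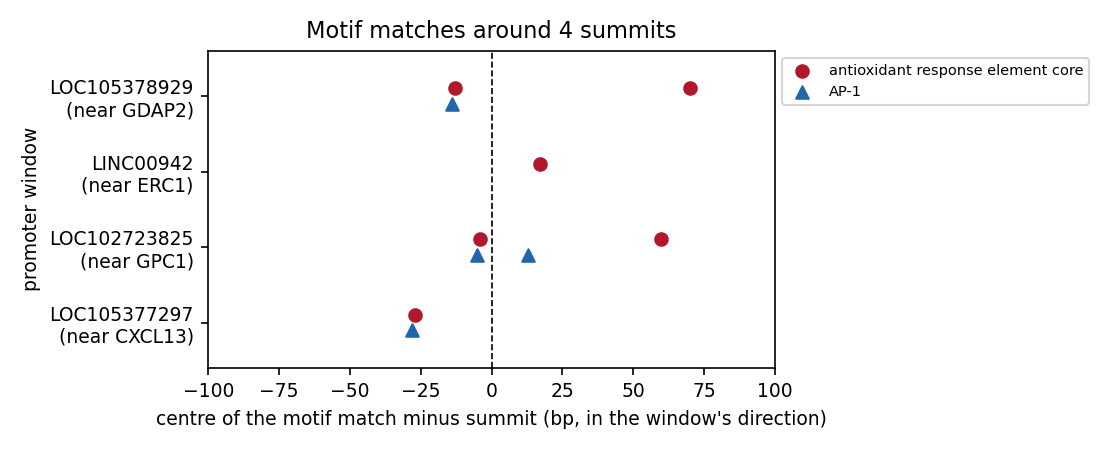
Motif matches around the summits of 4 gained regions. The horizontal axis gives the centre of each match minus the summit in bp, in the direction of the RNA gene, and each row is a promoter window. Circles are antioxidant response element cores and triangles AP-1 motifs. A core lies between 27 bp before and 17 bp past the summit in every row.

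The strength of a region is given as tags at its summit, recovered as whole numbers from the fold enrichment and −log10 p in the authors' lists. To set libraries side by side, tags were divided by the lowest background of the library, which was 0.332 tags for CDDO-Im 1 and 0.367 for CDDO-Im 2, against 0.316 for vehicle 1 and 0.315 for vehicle 2. In the 277 regions CDDO-Im 1 had a median of 11 tags, with quartiles of 9 and 15 and a range of 5 to 38. CDDO-Im 2 had a median of 17, with quartiles of 12 and 23 and a range of 5 to 50. Most regions thus rested on few tags, and 176 of 277 had at least 10 in both libraries.

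Over background, the median was 33.2 in CDDO-Im 1 and 46.3 in CDDO-Im 2. With the lowest background scaled by the width of the library's shortest peak, the medians were 36.3 and 43.5. The gap between the libraries thus depends on this choice. When CDDO-Im 1 was left out, so that listing by CDDO-Im 2 alone sufficed, the CDDO-Im 2 median was 27.2. By the unscaled background, CDDO-Im 2 was higher in 207 of the 277 regions (74.7%). The median ratio of CDDO-Im 2 to CDDO-Im 1 was then 1.26, with quartiles of 0.993 and 1.60. Neither was recomputed with the scaled background. Regions with more tags in CDDO-Im 1 tended to have more in CDDO-Im 2, with a Spearman coefficient of 0.61 over 277 regions. This is a description only, since the regions share both libraries and had to be listed in each. Of the 20 strongest regions by fold enrichment in each library, 7 were common to both.

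**Figure D2:**
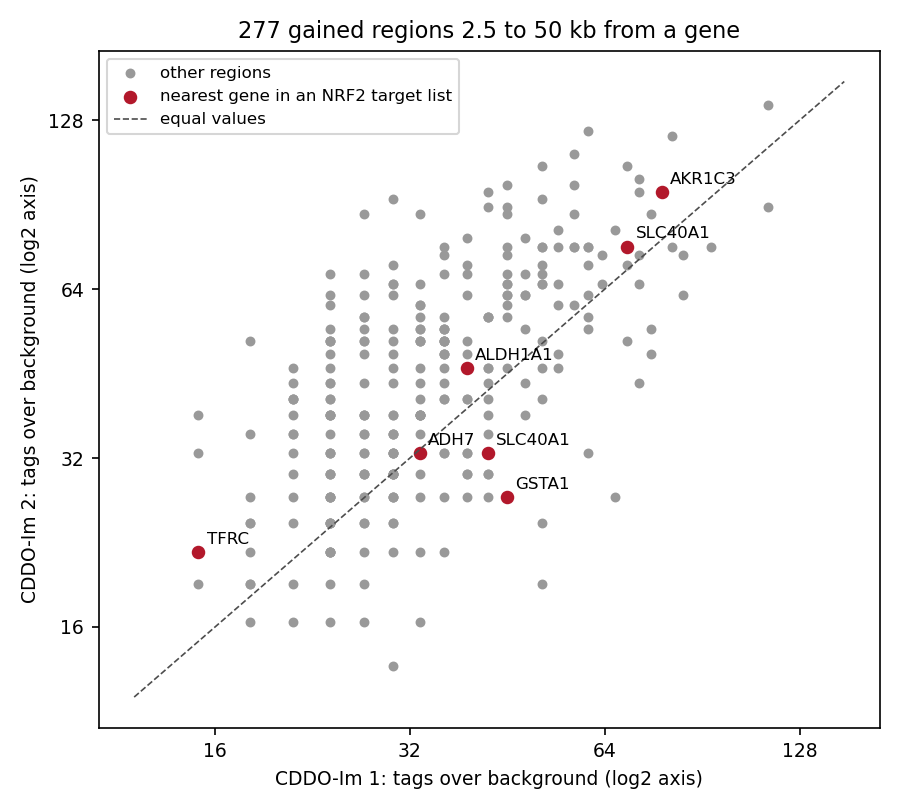
Tags over background at the summit of each of the 277 regions, CDDO-Im 1 on the horizontal and CDDO-Im 2 on the vertical axis (both log2 axes). Red points have a nearest gene in an NRF2 target list. Points above the dashed line, 207 of 277, were higher in CDDO-Im 2 by the unscaled lowest background of each library.

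The summits of CDDO-Im 1 and CDDO-Im 2 lay close to each other, which the rule partly fixes, since the peaks had to overlap. Summits were a median of 21 bp apart (quartiles 10 and 37, at most 158 bp), and within 50 bp in 235 of 277 regions. Peaks had median widths of 278 bp in CDDO-Im 1 and 298 bp in CDDO-Im 2. Both peaks had a −log10 q of at least 10 in 103 regions (37.2%).

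Vehicle libraries listed nothing in these regions, which does not measure how much NRF2 was there. Peaks at the lowest background were listed from 4 tags in each of the 4 libraries, and the median vehicle peak outside crowded megabases had 6 tags in vehicle 1 and 7 in vehicle 2. No vehicle peak lay within 1000 bp of any of the 277, and the median gap to a vehicle peak was 392343 bp. The rule already barred overlap with a vehicle peak. The gap was not computed for other places, so it does not show that these regions are unusually far from vehicle peaks. In 4 regions vehicle 2 had a peak within 5000 bp. Next to the PTGER2 region (25 and 32 tags with CDDO-Im) vehicle 2 had a peak of 10 tags 3577 bp away, in a neighbouring region where CDDO-Im 1 and 2 had 22 and 41 tags. C19orf12 had 11 and 19 tags with CDDO-Im and a vehicle 2 peak of 13 tags 2342 bp away.

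The gained share was close between locations. Of the joined regions 2.5 to 50 kb outside genes, 277 of 1409 were gained (19.7%, exact 95% interval 17.6% to 21.8%). Outside crowded megabases as a whole the share was 19.3% (1428 of 7386). It was 19.3% inside genes (634 of 3282), 19.3% farther than 50 kb (481 of 2491) and 17.6% outside genes within 2.5 kb of an end (36 of 204). The intervals, which cover counting error only, overlap. In the opposite direction, regions listed in vehicle 1 and 2 but never with CDDO-Im were 1 of 1409 in the same distance band (0.071%) and 4 of 7386 overall (0.0542%). Outside crowded megabases CDDO-Im 1 and 2 listed 3249 and 4795 peaks, against 1216 and 1276 in vehicle 1 and 2. With crowded megabases the counts were 3882 and 12244, against 4098 and 7308, so the CDDO-Im 1 list was then the shortest. The part of list length in the gain was not tested. Leaving out CDDO-Im 1 gave 797 regions and leaving out CDDO-Im 2 gave 465, since presence in a single list then sufficed.

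**Figure D3:**
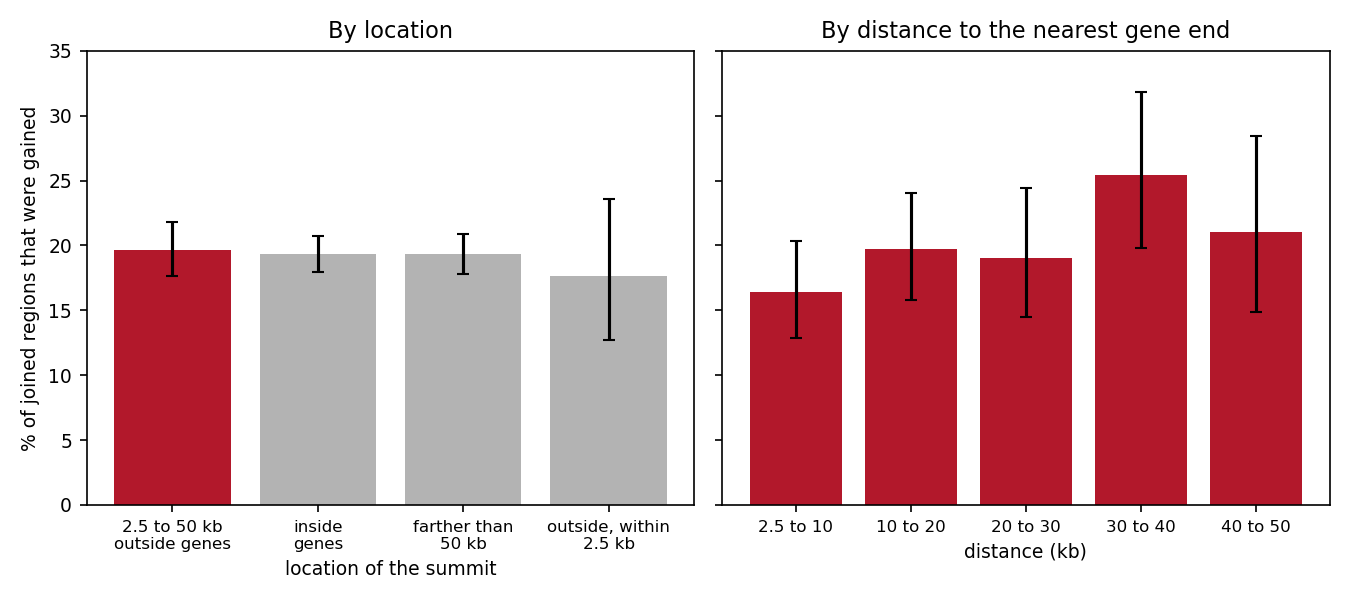
Share of joined regions that were gained with CDDO-Im, by location of the summit (left) and by distance within the band (right). Bars are percentages from 0, and error bars are exact 95% binomial intervals. The 4 locations range from 17.6% to 19.7%, and the distance bins from 16.4% to 25.5%.

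Strength was also close between locations. Medians over background were 33.2 and 46.3 (CDDO-Im 1 and 2) in the 277 regions, 33.2 and 43.5 in gained regions inside genes, and 30.2 and 40.8 in gained regions farther than 50 kb. Summits were a median of 21 bp apart in all 3 kinds. By distance, 66 regions lay within 10 kb, 75 at 10 to 20 kb, 49 at 20 to 30 kb, 55 at 30 to 40 kb and 32 at 40 to 50 kb. The gained share was lowest in the nearest bin, at 16.4% (12.9% to 20.4%), and highest at 30 to 40 kb, at 25.5% (19.8% to 31.8%). It was 19.7% at 10 to 20 kb, 19.1% at 20 to 30 kb and 21.1% at 40 to 50 kb. A trend with distance was not tested. Median tags stayed between 10.5 and 12 in CDDO-Im 1 and between 14 and 17.5 in CDDO-Im 2 over these bins.

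The strand of the nearest gene, which the rule did not use, was known for 220 regions from the RefSeq promoter table. Of these, 119 lay before the start of the gene and 101 past its end (54.1% before, exact interval 47.3% to 60.8%). The other joined regions of the distance band had 476 of 842 before the start (56.5%, 53.1% to 59.9%). Regions before the start had medians of 11 and 16 tags in CDDO-Im 1 and 2, and regions past the end 11 and 18. The regions were spread over all 23 chromosomes studied, with 27 on chromosome 2 and 2 on chromosome 19. These counts were not set against chromosome length or the number of joined regions.

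Long non-coding RNA genes held the summit of 61 of the 277 regions (22.0%, exact interval 17.3% to 27.4%). The other joined regions of the band had nearly the same share, 249 of 1132 (22.0%, 19.6% to 24.5%). Gained regions farther than 50 kb had 133 of 481 (27.7%). A region had 1 protein-coding gene with an end within 50 kb in 157 cases, 2 in 78, 3 in 22 and 4 or more in 20, so for 120 regions the nearest gene was not the sole candidate by distance.

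For the ranking by strength, each region took the smaller of its CDDO-Im 1 and CDDO-Im 2 fold enrichments, which are values of the authors' lists. No region was above MRPL3, at 24.8. MRPL3 encodes a mitochondrial ribosomal protein, and its region on chromosome 3 (131453511 to 131453933), 8453 bp past the gene, had 38 and 50 tags in CDDO-Im 1 and 2. No region of the 277 had more in either library.

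AKR1C3, an aldo-keto reductase of steroids and prostaglandins, was also among the strongest. The region lay between AKR1C2 and AKR1C3 (chromosome 10, 5033350 to 5033706), 15535 and 15246 bp from their ends, with 26 and 35 tags. LECT2, a secreted chemotactic factor, had 31 and 28 tags 12030 bp before its start. SLC40A1, which encodes the iron exporter ferroportin, had 23 and 28 tags 25514 bp past its end (chromosome 2, 189534922 to 189535277). PTGER2, a prostaglandin E2 receptor, had 25 and 32 tags 18361 bp past its end.

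CH25H makes the oxysterol 25-hydroxycholesterol, and its region 4098 bp past the gene (chromosome 10, 89201289 to 89201730) had 20 and 45 tags, the widest gap between libraries among the strongest. UBE2D3, a ubiquitin-conjugating enzyme, had 23 and 39 tags at 4871 bp. MELK, a cell cycle kinase, had 24 and 37 tags at 22093 bp, and EPM2A, the glycogen phosphatase laforin, 20 and 28 at 13761 bp. ALOX12, a lipoxygenase, had 20 and 28 tags at 26565 bp, and RDH10, a retinol dehydrogenase, 24 and 27 at 21529 bp. CYP4B1, a cytochrome P450, had 21 and 24 tags at 30396 bp, and CLPB, a mitochondrial disaggregase, 20 and 26 at 11114 bp. In these 8 regions both libraries had at least 20 tags.

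Others of the first 20 were LOC128966567, GDAP2, CIBAR2, ZMAT2, PPIAP59 and DCP1A, with 19 to 28 tags in CDDO-Im 1 and 20 to 36 in CDDO-Im 2. FSCN1, which encodes the actin bundler fascin, tied with DCP1A at 15.0 and had 19 and 28 tags at 30056 bp. Among the first 20, 8 summits lay in a long non-coding RNA gene, such as RDH10-AS1 and EPM2A-DT. At the other end of the ranking were PRKAR2B (7 and 13 tags) and TNK2 (10 and 5).

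**Figure D4:**
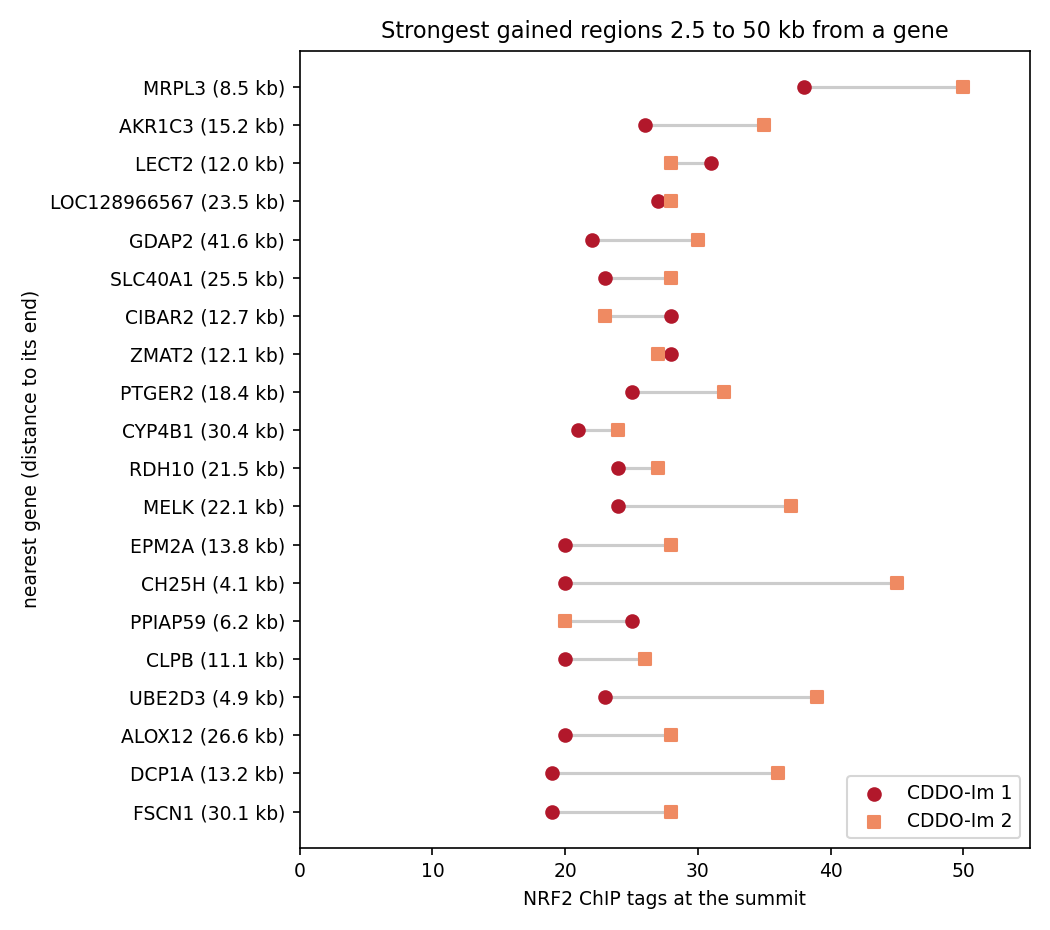
Tags at the summit of 20 of the strongest gained regions, with circles for CDDO-Im 1 and squares for CDDO-Im 2, strongest at the top. Rows give the nearest gene and the distance to its end in kb. MRPL3 reaches 50 tags, and every region shown has at least 19 tags in both libraries.

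NRF2 target genes were then looked up among the nearest genes. The 277 regions had 276 nearest genes, 1.38% of 19974 protein-coding genes, and 466 genes (2.33%) had an end within 50 kb of a region. Of 100 matched NRF2 target genes, 6 were nearest genes (SLC40A1, TFRC, GSTA1, AKR1C3, ALDH1A1 and ADH7) and 10 had an end within 50 kb. These lists were written with earlier results of these data known, so the counts are not independent evidence.

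Of 10 heme and iron genes, 2 were nearest genes. SLC40A1 was the only gene nearest to 2 regions, and no gene was nearest to 3. A second region, 11414 bp past the gene (chromosome 2, 189549034 to 189549361), had 14 and 12 tags and was 14100 bp from the stronger one. CDDO-Im 2 alone listed a further peak of 9 tags, nearest to WDR75, and neither vehicle library listed any within 100 kb of SLC40A1. TFRC, the transferrin receptor that takes up iron, had 5 and 8 tags 41158 bp before its start, and ranked 274 of 277.

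Of 26 detoxification genes, 3 were nearest genes. Besides AKR1C3, ALDH1A1, an aldehyde dehydrogenase that makes retinoic acid, had 13 and 17 tags 26641 bp before its start (chromosome 9, 72979541 to 72979878). ADH7, an alcohol and retinol dehydrogenase, had 11 and 12 tags 16314 bp past its end (chromosome 4, 99395753 to 99396088). On the other side of ADH7, vehicle 1 listed a peak of 7 tags 7115 bp away. Inside AKR1C3 a separate region was listed in all 4 libraries, with 38 and 70 tags in CDDO-Im 1 and 2 and 16 and 6 tags in vehicle 1 and 2. In the glutathione list, 1 of 16 genes was nearest: GSTA1, a glutathione transferase, 2677 bp past its end with 15 and 10 tags. GSTA1 belongs to a cluster of similar genes, and whether its tags are shared with near copies was not tested.

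Genes that were not nearest but had an end within 50 kb added TKT, MAFK and NFE2L1 beside AKR1C2. TKT encodes transketolase of the pentose phosphate pathway, 1 of 10 genes in its list. The region assigned to DCP1A lay 14209 bp from TKT (chromosome 3, 53270025 to 53270438) with 19 and 36 tags. A region inside TKT was in all 4 lists, with 35 and 64 tags in CDDO-Im 1 and 2 and 10 and 12 in vehicle 1 and 2. MAFK, a small MAF partner of NRF2, lay 17156 bp from a region with 11 and 21 tags, and NFE2L1, a relative of NRF2, 45575 bp from a region with 10 and 16 tags. Both are among 12 matched pathway regulators.

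**Figure D5:**
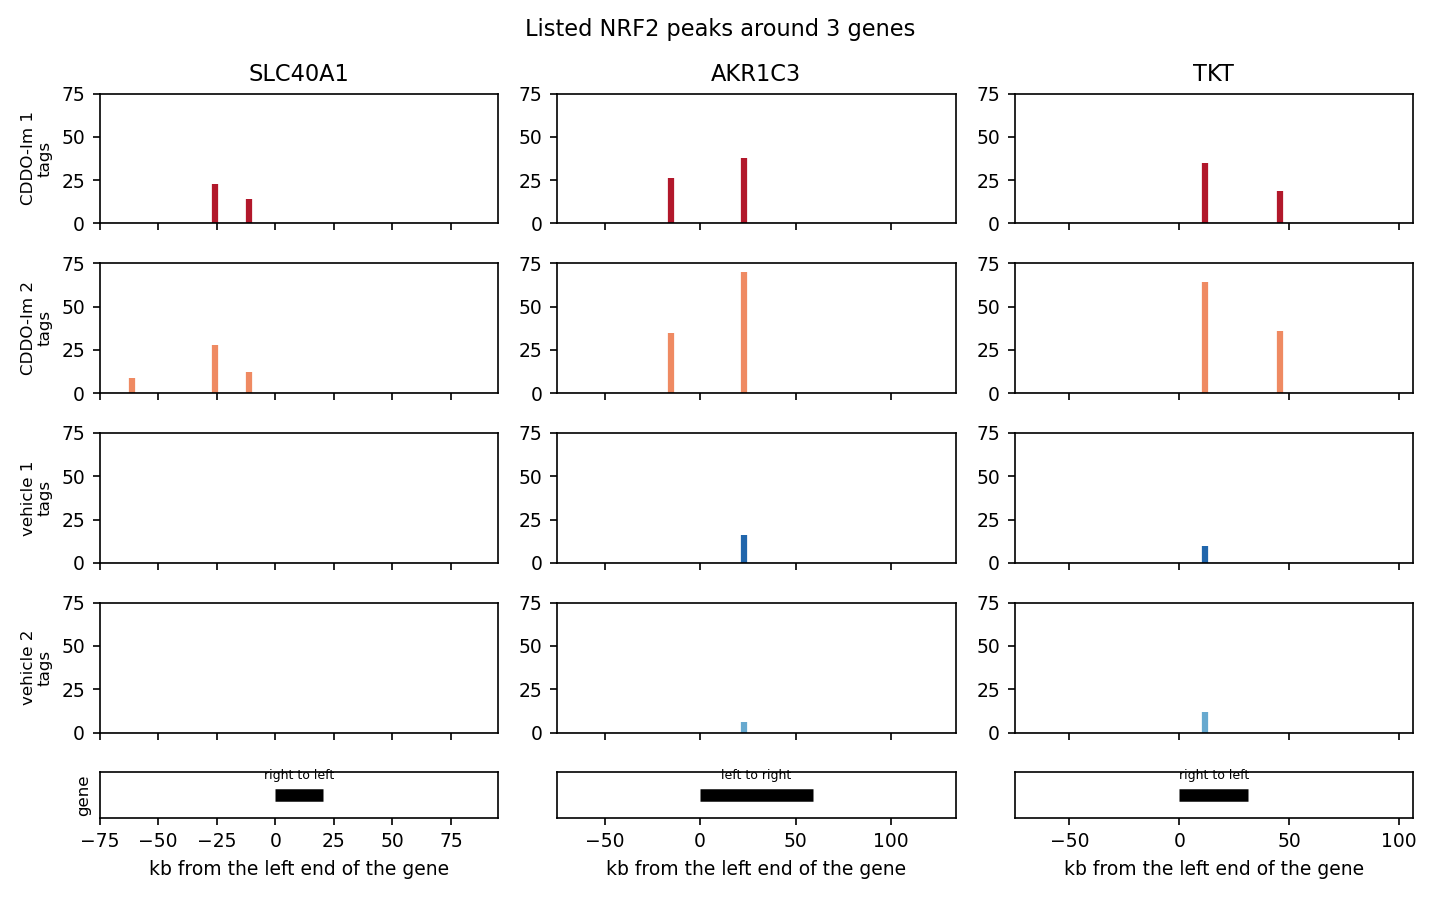
Peaks listed within reach of SLC40A1, AKR1C3 and TKT, with CDDO-Im libraries above vehicle libraries. Bars give tags at a summit against kb from the left end of the gene, whose extent and direction of transcription are drawn at the bottom. Neither vehicle library has a bar at SLC40A1, where CDDO-Im 1 and 2 reach 23 and 28 tags, while AKR1C3 and TKT have a region inside the gene in all 4 libraries.

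The other lists are short, so counts of 0 or 1 beside 1.38% of all protein-coding genes say little about them. JUN, an AP-1 subunit (1 of 9 genes in the AP-1 list), had a region 26574 bp past its end with 10 and 23 tags. Vehicle 1 listed a separate peak of 5 tags nearer to JUN, at 2664 bp. NFKBIA, the inhibitor of NF-kappaB (1 of 15 inflammatory genes), had 14 and 15 tags at 26983 bp. The thioredoxin, autophagy and proteasome, heat shock and unfolded protein response lists had 0 nearest genes among 12, 14, 10 and 10. The same held for 8 microglia and macrophage markers, 7 mesenchymal, 6 astrocyte and oligodendrocyte, and 6 neuron markers. Peak lists carry no expression, so they do not show whether the cells express microglial markers. By gene family, 9 of 398 solute carriers (2.26%) were nearest genes. So were 4 of 517 zinc finger genes (0.774%) and 3 of 392 olfactory receptors (0.765%), beside 1.38% of all genes. Of 95 potassium channels, 46 ABC transporters and 44 collagens, 0 were nearest genes.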

How the data were processed

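NRF2 ChIP-seq peak lists of 2 CDDO-Im and 2 vehicle libraries were used. The submitters' processing notes name MACS2 2.2.7.1, BWA 0.7.17 and bcl2fastq 2.15.0, and the builds GRCm38 and hg38. The sources used here do not give the control, the threshold or the duplicate rule. The deposited lists, 1 per library, give for each peak the fold enrichment (ratio), −log10 p, −log10 q and a deposited score, which is 10 times the −log10 q. These are the authors' values and were used to describe or rank peaks within a list.

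Tags k and background b were recovered from fold = (k + 1) / (b + 1) and the Poisson tail above k, where the −log10 p matched to within 0.001 plus 0.0002 of its size. At least 97.7% of peaks in each library had a single match. Of the 277 regions, 9 held a peak with a second match, settled by the lowest background of the library. Genes were 19974 protein-coding genes of RefSeq on GRCh38.p14. Python 3.11.15, numpy 2.4.6, pandas 2.3.3 and scipy 1.17.1 were used. Recovery and joining were tested on simulated data, and distances and motif search on a few fixed examples with known answers.

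The regions, gene lists and comparisons were chosen with earlier results of these data known, and no p-value is given, because listing in the libraries is what chose the regions. Named regions were the 20 with the highest lower fold enrichment, those nearest to a listed NRF2 target, genes nearest to 3 or more regions, the regions at the limits, and the 3 weakest. Some of these are not reported here. Genes beyond this rule, TKT, MAFK and those named beside list counts among them, were chosen after their values were seen. Library totals were not used here, and the lowest background stands for depth. Fragment length in peak calling can change it as well. Alternatives were 2 q limits, a 100 bp overlap, other distances, kept crowded megabases, another background and each library left out. No genome sequence was used, so the planned motif search around every summit was not run.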

Additional observations from a re-analysis of the deposited data

How the results depend on the processing

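Of 60 values recomputed under 13 settings, 50 stayed within their limits. These were 1.5 times for counts, an SD of 9.26 for tags over background and an exact 95% interval for the rest. That SD is the spread of the 2 CDDO-Im medians and not the error of either. Not all of the 50 could move: with crowded megabases kept, the regions were the same 277. The share before the start within 10 kb was also counted under both settings that used 10 kb. With peaks of a −log10 q of at least 10 there were 189 regions, of which 103 overlapped the 277 and 86 did not. This limit also removed weaker vehicle peaks, so a region with such a peak could then count as gained. The 189 are therefore not a stricter part of the 277, and the origin of the 86 was not counted. In these 189, CDDO-Im 1 had a median of 57.3 tags over background, CDDO-Im 2 one of 73.5, and summits were a median of 16 bp apart. At up to 10 kb from a gene end there were 66 regions, with summits 17.5 bp apart and 1 NRF2 target as nearest gene. Counting any gene with an end within 50 kb gave 10 NRF2 targets in place of 6. A −log10 q of at least 5 left 4 targets as nearest genes. One of at least 10 also gave 4, but these cannot all come from the 277 regions. The ADH7 and GSTA1 regions had a −log10 q of 9.69 and 3.62 in CDDO-Im 2, and TFRC 2.29 in CDDO-Im 1. Leaving out a library gave 306 to 797 regions, with medians over background of 24.1 to 36.2 in CDDO-Im 1 and 27.2 to 49.0 in CDDO-Im 2. There were then 6 to 8 targets and 52.9% to 56.9% of regions before the start. Summits were 20 to 21 bp apart when a vehicle library was left out, the setting where both CDDO-Im summits exist. The median over background of CDDO-Im 2 fell to 27.2 without CDDO-Im 1, and fewer lists were required there. No paired analysis was possible because the results come from no test. The motif search in windows around all summits was not run. Few tags limit each region: fewer than 10 were found at 92 of 277 by CDDO-Im 1 and at 35 by CDDO-Im 2. The motif search in promoter windows was chosen after seeing the data.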

Other observations

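A few more nearest genes are given here singly. They were picked after their values were seen, stand for no gene group and carry no test. ALDH8A1, an aldehyde dehydrogenase, had 13 and 15 tags in CDDO-Im 1 and 2, 41826 bp away. The prostaglandin transporter SLCO2A1 had 10 and 9 tags at 10898 bp. TIGIT, an inhibitory receptor of lymphocytes, had 15 and 28 tags at 18951 bp, and FASLG, the Fas ligand, 12 and 25 at 13566 bp. IL17B, a cytokine of the interleukin 17 family, had 15 and 33 tags at 41961 bp. STAT6, which acts downstream of interleukin 4, had 17 and 15 tags at 8530 bp. LDHA, a lactate dehydrogenase subunit, had 10 and 26 tags at 4294 bp. PAPSS1, which makes the sulfate donor PAPS, had 24 and 24 tags at 23553 bp, and a second gained region inside the gene, 32827 bp away, had 12 and 9.

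Another gained region lay within 50 kb of 15 of the 277 regions, and any other listed region within 50 kb of 88. Regions nearest to ANKRD33B (24 and 35 tags) and ROPN1L (12 and 27 tags) were 21015 bp apart. The region nearest to SCN7A, a sodium channel gene, had 10 and 11 tags and lay 35950 bp from a gained region inside SCN9A with 30 and 37 tags.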
